A study of Homo sapiens with 3 samples.

Results

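The human mitochondrial genome encodes 7 subunits of respiratory complex I, the proteins ND1, ND2, ND3, ND4, ND4L, ND5 and ND6, and their genes carry the prefix MT-. They were taken by gene name from a table of ribosome profiling (Ribo-seq) counts, in which they are 7 of 63241 genes. All 7 passed the filter on low counts that left 19820 genes for testing, so no member was lost. Ribo-seq sequences the RNA fragments that ribosomes protect from a nuclease, and the count of a gene measures how many such fragments were assigned to it. The cells were HEK293T, a human embryonic kidney line whose SV40 large T antigen binds p53, and each of the 3 groups expressed a p53 construct. The groups were wild-type p53 (WT), G245S p53 and R273H p53, the mutants being hotspot substitutions in the DNA-binding domain, and each had 3 culture dishes. Per the study's methods the lines were stable lentiviral lines. The labels differ among themselves on whether expression was stable or transient and give the mutants a treatment that names the wild-type construct, so groups were taken from the sample titles. Cells that lacked the constructs were not analysed here.

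Complex I accepts electrons from NADH, passes them to ubiquinone and pumps protons across the inner mitochondrial membrane. The 7 mitochondrially encoded subunits form the core of its membrane arm, and the remaining subunits are encoded in the nucleus, translated in the cytosol and imported. MT-ND mRNAs are translated inside the organelle by mitochondrial ribosomes, which cycloheximide does not block, unlike cytosolic ribosomes. All 3 groups received cycloheximide for 2 min (100 μg/mL in the wash), and micrococcal nuclease (3 U for each μg of RNA, 30 min) trimmed the lysates before monosomes were collected by sucrose gradient. The table holds no fragment lengths or positions, so whether reads of the MT-ND genes came from mitochondrial ribosomes was not tested. Per the labels, dishes of 1 group shared a pool from reverse transcription onward, so group and pool cannot be told apart in any comparison. In bulk libraries, fewer mitochondrial transcripts per cell, fewer ribosomes per transcript and fewer cells that carry them also cannot be told apart.

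In GRCh38 the members lie on the mitochondrial chromosome, which is 16569 bases long. MT-ND1 lies at chrM:3307-4262, MT-ND2 at chrM:4470-5511, MT-ND3 at chrM:10059-10404, MT-ND4L at chrM:10470-10766, MT-ND4 at chrM:10760-12137 and MT-ND5 at chrM:12337-14148, all on the plus strand. MT-ND6 at chrM:14149-14673 is the 1 member on the minus strand. Each gene is a single exon, and the annotation gives no UTR between its start and its first codon. The first 30 bases of each coding region show that the members do not all share 1 start codon. The capitals mark the codon at which the annotated coding region begins.
MT-ND1: ATAcccatggccaacctcctactcctcatt
MT-ND2: ATTaatcccctggcccaacccgtcatctac
MT-ND3: ATAaacttcgccttaattttaataatcaac
MT-ND4: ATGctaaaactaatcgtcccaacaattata
MT-ND4L: ATGcccctcatttacataaatattatacta
MT-ND5: ATAaccatgcacactactataaccacccta
MT-ND6: ATGatgtatgctttgtttctgttgagtgtg
MT-ND1, MT-ND3 and MT-ND5 begin with ATA, MT-ND2 with ATT, and MT-ND4, MT-ND4L and MT-ND6 with ATG. The mitochondrial code accepts all of these as starts. The sense strand of MT-ND6 held 35.6% G and 7.0% C, whereas G made up 9.5% to 12.1% of the other members, and the G-rich start of MT-ND6 above shows the difference.

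A pair of junctions matters for how reads can be assigned. MT-ND4L and MT-ND4 are translated from 1 shared mRNA in different frames, and their genes overlap by 7 bases, shown in capitals in this plus-strand stretch at chrM:10749-10778.
MT-ND4L to MT-ND4: aacctactccaATGCTAAaactaatcgtcc
The capitals begin with the start codon of MT-ND4 and end with the stop codon of MT-ND4L, so a read across this site cannot be given to 1 of the genes. MT-ND5 and MT-ND6 instead abut tail to tail on opposite strands at chrM:14134-14163, where the capitals mark the last 3 bases of each gene (those of MT-ND6 as their complement).
MT-ND5 to MT-ND6: ctcctaatcacaTAACCTattcccccgagc
Whether the authors' counting used strand is not stated. Sense and antisense reads therefore cannot be told apart, either at this junction or along the rest of MT-ND6 and the other members.

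The 9 libraries held 18.7 to 24.6 M counts, and the 13 mitochondrial protein genes together took 0.303% to 0.343% of them. CDKN1A and MDM2, targets that WT p53 activates, checked the label of WT against those of the mutants. CDKN1A stood at 59.0 to 63.5 CPM (counts scaled to a common library total) in WT and 13.5 to 16.5 in the mutants. MDM2 stood at 815 to 913 against 73.3 to 81.5. The mutant labels were not checked against each other, and MDM2 averaged 76.8 CPM in G245S and 76.7 in R273H. Of the markers listed for the kidney line, VIM (875 to 997 CPM), CDH2 (265 to 296), KRT18 (108 to 120) and KRT8 (32.4 to 44.5) were highest. CDH1 (5.24 to 8.58) and EPCAM (3.28 to 5.35) were low, and KRT19 reached at most 0.0508 CPM. Of the markers of other cells, PTPRC, PECAM1, COL1A2 and ALB stayed at or below 0.163 CPM in every library, and COL1A1 lay at 25.0 to 34.0.

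The MT-ND genes together were lower in both mutants than in WT as a share of the library. They took 0.140%, 0.137% and 0.137% of all counts in the WT dishes, 0.130%, 0.129% and 0.128% in the G245S dishes and 0.129%, 0.126% and 0.129% in the R273H dishes. Every mutant dish lay below every WT dish, and the mutants overlapped each other. The mean difference from WT was -0.0090 percentage points in G245S and -0.010 in R273H, each with p = 0.1 in an exact two-sided permutation test of dishes, the smallest p that 3 dishes against 3 allow. G245S and R273H differed by 0.00097 percentage points (exact permutation p = 0.5).

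**Figure D1:**
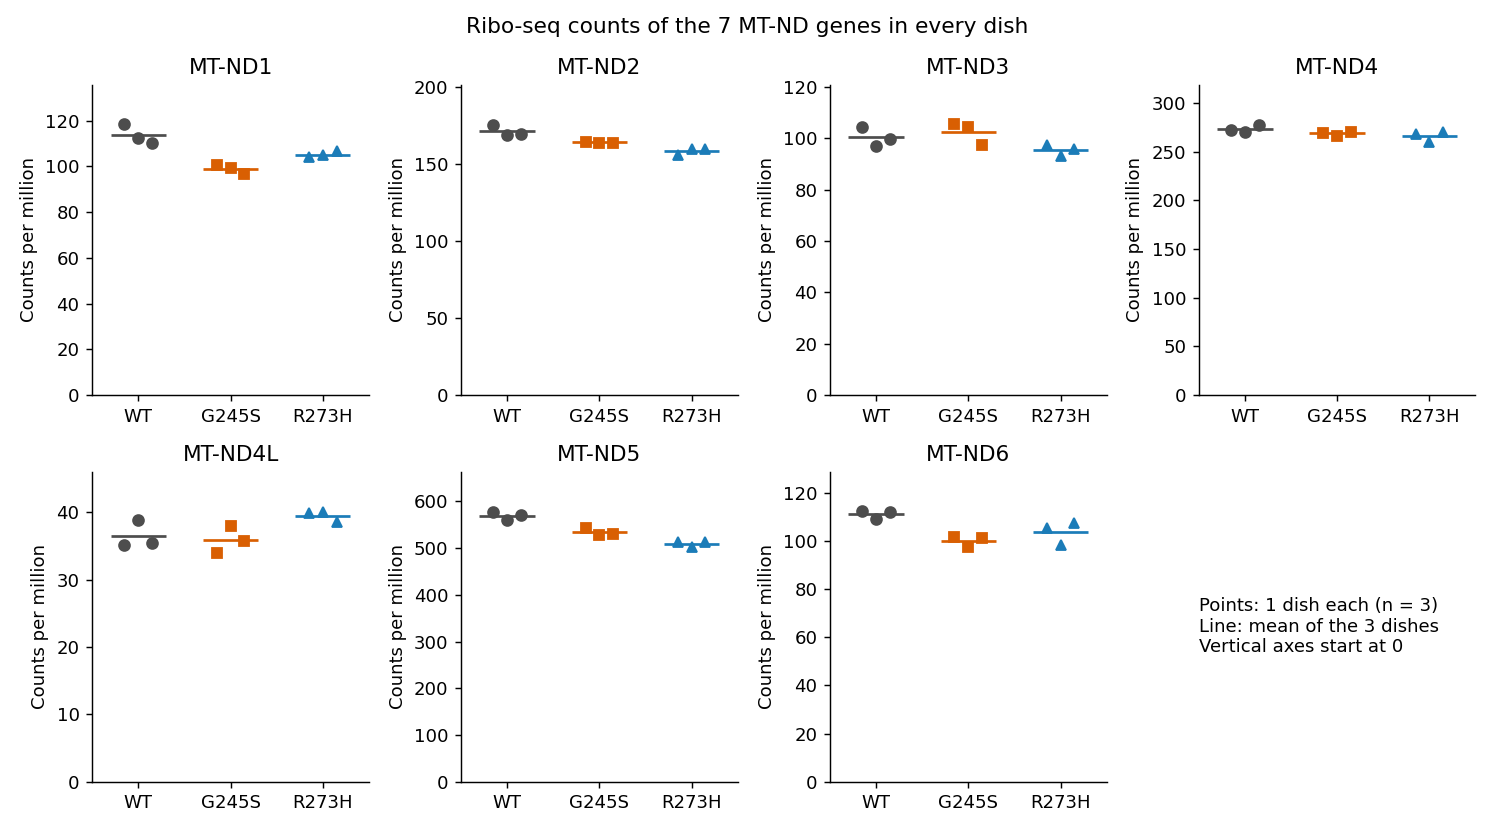
CPM (vertical axis, starting at 0) of each MT-ND gene in the 3 dishes of WT, G245S and R273H, with 1 point per dish and a line at the mean. MT-ND1, MT-ND2, MT-ND5 and MT-ND6 sit below WT in every dish of both mutants, while MT-ND3, MT-ND4 and MT-ND4L overlap with WT.

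Levels differed between members by more than they differed between groups. To compare genes, CPM were divided by the coding length in kilobases (CPM per kb). In WT the order was MT-ND5 (315 ± 4.67 CPM per kb, SD, n = 3 dishes), MT-ND3 (290 ± 11.1), MT-ND6 (212 ± 3.45), MT-ND4 (198 ± 2.59), MT-ND2 (164 ± 3.58), MT-ND4L (124 ± 7.02) and MT-ND1 (119 ± 4.38). Neighbours in this order did not overlap between dishes, except MT-ND4L and MT-ND1. With counts of nuclear pseudogenes added to the members they are named for, every WT level rose and the order was the same. The levels were then 326, 306, 226, 214, 193, 153 and 145 CPM per kb. Without that addition, the highest member stood at the 6th place among the 13 mitochondrial protein genes. MT-CO3 (435 CPM per kb), MT-CO1 (434), MT-CO2 (413), MT-CYB (369) and MT-ATP6 (344), which encode subunits of cytochrome c oxidase, complex III and ATP synthase, had higher levels in WT than every MT-ND gene, and MT-ATP8 (299) lay between MT-ND5 and MT-ND3.

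The genes at the foot of the order were the same in each group, with MT-ND2, MT-ND4L and MT-ND1 at the 11th, 12th and 13th places. In G245S, MT-ND3 (296 ± 12.5 CPM per kb) and MT-ND5 (295 ± 4.77) overlapped, as did MT-ND4 (195 ± 1.53) and MT-ND6 (191 ± 4.60). In R273H the same pairs overlapped, with MT-ND5 at 282 ± 3.58, MT-ND3 at 275 ± 6.43, MT-ND6 at 198 ± 8.81 and MT-ND4 at 193 ± 3.84 CPM per kb. MT-ND4L and MT-ND1, which overlapped in WT, did not overlap in G245S (122 ± 6.80 against 103 ± 2.12) or in R273H (134 ± 2.49 against 110 ± 1.51). MT-ND4L and MT-ND4, which share an mRNA, stood at 124 and 198 CPM per kb in WT.

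**Figure D2:**
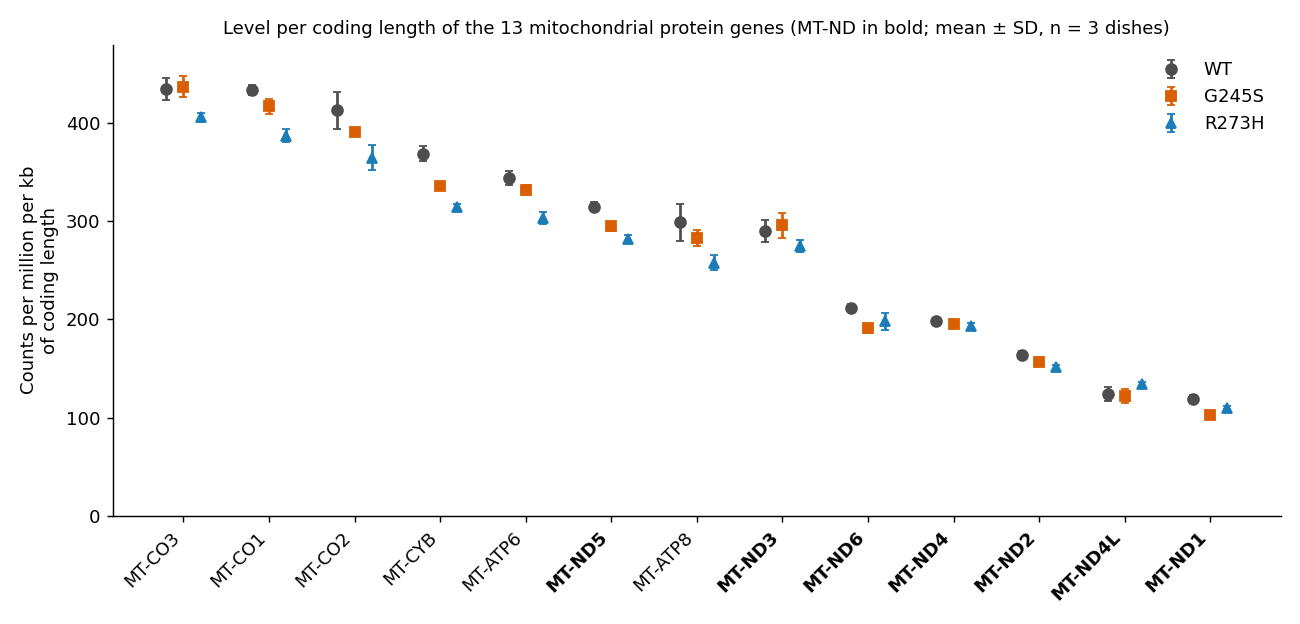
CPM per kilobase of coding length (vertical axis, starting at 0) for the 13 mitochondrial protein genes in WT, G245S and R273H, ordered by the WT level, as mean and SD of 3 dishes. MT-ND genes, in bold, occupy the 6th and the 8th to 13th places in WT, from 315 (MT-ND5) down to 119 (MT-ND1).

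Each mutant was then compared with WT gene by gene, in 1 edgeR quasi-likelihood fit of all 9 libraries, with p-values adjusted by the Benjamini-Hochberg method over all 19820 genes and a gene called at an adjusted p under 0.05. In G245S, 3 of the 7 MT-ND genes were called, all lower, where 24.7% of all genes were called, 12.1% lower and 12.6% higher. In R273H, 4 of 7 were called, again all lower, against 28.8% of all genes, 14.6% lower and 14.2% higher. MT-ND1, MT-ND5 and MT-ND6 were called in both mutants and MT-ND2 in R273H. For 4 of 7 members, the same 4 in each mutant, every mutant dish lay below every WT dish, and for none did every mutant dish lie above. Of all genes, 18.7% did so below and 18.6% above in G245S, and 20.9% below and 20.3% above in R273H. The median log2 fold change of the 7 was -0.062 in G245S and -0.099 in R273H, beside -0.00069 and -0.0024 over all genes tested. Both comparisons use the same WT dishes.

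Of the subunits related to ion antiporters, which form the proton-pumping part of the membrane arm (ND2, ND4 and ND5), MT-ND5 was called lower in both mutants, MT-ND2 in R273H alone and MT-ND4 in neither. MT-ND5 encodes the subunit at the far end of the arm and gave the most counts of the members. Its level was 576.8, 560.2 and 571.2 CPM in the WT dishes, 543.6, 527.5 and 530.1 in the G245S dishes and 514.0, 502.2 and 512.7 in the R273H dishes. The groups did not overlap at any point, with WT highest and R273H lowest. MT-ND5 fell by 6.28% in G245S (log2 fold change -0.094, SE 0.023, adjusted p = 0.00348) and by 10.5% in R273H (log2 fold change -0.16, SE 0.023, adjusted p = 4.6e-06). Both calls held under each of 19 alternative settings.

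MT-ND2 stood at 175.5, 168.7 and 169.4 CPM in WT, at 164.5, 163.7 and 163.8 in G245S and at 156.0, 159.5 and 159.6 in R273H. All mutant dishes were below all WT dishes, and R273H was below G245S. MT-ND2 fell by 7.50% in R273H (log2 fold change -0.11, SE 0.028, adjusted p = 0.00306). In G245S its log2 fold change was -0.062 (SE 0.029), which was not called (adjusted p = 0.113, unadjusted p = 0.0374). MT-ND4 stood at 272.7, 270.1 and 277.2 CPM in WT, 269.6, 266.5 and 270.5 in G245S and 268.0, 260.1 and 270.2 in R273H, and the groups overlapped. Its log2 fold change in G245S was -0.024 (95% confidence interval -0.077 to 0.029, adjusted p = 0.553). In R273H it was -0.039 (-0.091 to 0.013, adjusted p = 0.274). The intervals leave room for a small difference in either direction. After removal of a trend with gene length and GC content the R273H value of MT-ND4 was -0.069 and was called (adjusted p = 0.00911).

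ND1 and ND3 lie where the membrane arm meets the peripheral arm, by the ubiquinone site. MT-ND1 stood at 118.4, 112.6 and 110.3 CPM in WT, at 100.5, 99.5 and 96.6 in G245S and at 104.0, 104.9 and 106.8 in R273H. Both mutants were below WT in all dishes, and here G245S was the lower mutant. MT-ND1 fell by 13.2% in G245S (log2 fold change -0.20, SE 0.035, adjusted p = 5.2e-05), the greatest fall of a member in either mutant, and by 7.57% in R273H (-0.11, SE 0.034, adjusted p = 0.0109). The R273H call was lost without WT dish 1 (adjusted p = 0.0927), without R273H dish 1 (adjusted p = 0.0527) and with DESeq2 (adjusted p = 0.0543), and the G245S call held under all 19 alternatives.

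MT-ND3, whose product carries a loop that shapes the ubiquinone site, was not called in either mutant. Its level was 104.5, 97.0 and 99.7 CPM in WT, 105.5, 104.4 and 97.5 in G245S and 97.2, 92.9 and 95.8 in R273H. G245S lay within or just above the WT range, and 2 of 3 R273H dishes lay below it. The log2 fold change was 0.027 (95% confidence interval -0.050 to 0.10, adjusted p = 0.653) in G245S and -0.076 (-0.15 to -0.00016, adjusted p = 0.128) in R273H. With the length and GC trend removed, MT-ND3 was called higher in G245S (0.12, adjusted p = 0.0469).

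ND6 and ND4L are the remaining mitochondrially encoded subunits of the membrane arm. MT-ND6, the minus-strand gene, stood at 112.3, 109.0 and 111.9 CPM in WT, 101.7, 97.3 and 101.2 in G245S and 105.4, 98.5 and 107.3 in R273H. Each mutant dish was below each WT dish, and the mutants overlapped. MT-ND6 fell by 9.90% in G245S (log2 fold change -0.15, SE 0.036, adjusted p = 0.00246) and by 6.66% in R273H (-0.099, SE 0.035, adjusted p = 0.0330). With the length and GC trend removed the G245S value was -0.087 (adjusted p = 0.0216). The R273H call was the least stable of the calls, with 11 of 19 alternatives calling it and adjusted p-values between 0.00541 and 0.238. It was lost without WT dish 1 (adjusted p = 0.0988), WT dish 3 (0.0796) or R273H dish 2 (0.238).

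MT-ND4L was the 1 member with a positive log2 fold change in R273H, and it was not called. It had the fewest counts, 627 to 989 per library, at which counting error alone was up to 3.99%. Its level was 35.1, 38.8 and 35.4 CPM in WT, 34.0, 38.0 and 35.7 in G245S and 39.8, 40.0 and 38.6 in R273H. G245S and WT overlapped, and R273H overlapped with WT through WT dish 2 alone. The log2 fold change was -0.020 (95% confidence interval -0.13 to 0.091, adjusted p = 0.835) in G245S and 0.12 (0.011 to 0.22, adjusted p = 0.0925) in R273H. Without WT dish 2 the R273H value was 0.16 and was called (adjusted p = 0.0405), and with the length and GC trend removed it was 0.19 (adjusted p = 0.00182).

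**Figure D3:**
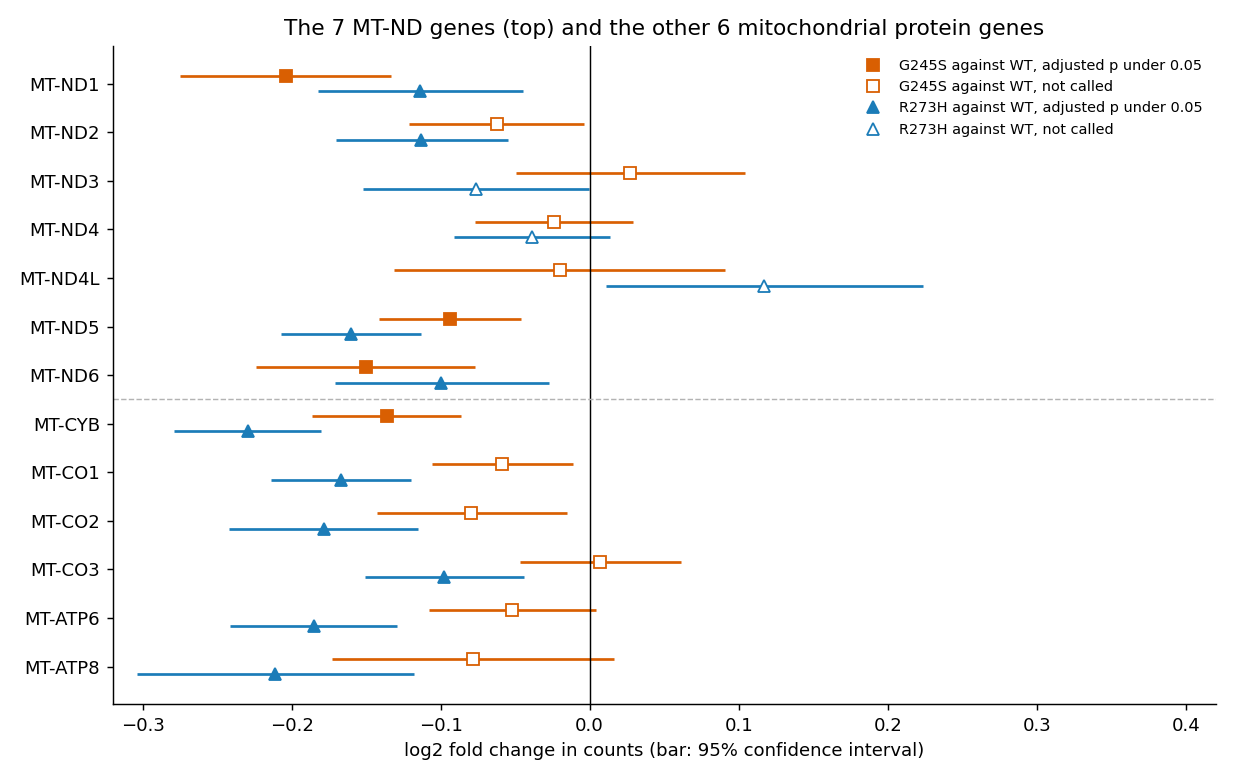
The log2 fold change in counts (horizontal axis) with its 95% confidence interval for G245S and R273H against WT, for the 7 MT-ND genes above the dashed line and the other 6 mitochondrial protein genes below it. Filled symbols mark calls. The MT-ND genes span -0.20 to 0.027 in G245S and -0.16 to 0.12 in R273H, and the other 6 genes all lie below 0 in R273H.

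The MT-ND genes were then set beside the other 6 mitochondrial protein genes. In R273H all 6 of these were called lower, where 14.6% of all genes were. Their median log2 fold change was -0.18, with a range of -0.23 (MT-CYB, complex III) to -0.098 (MT-CO3). In G245S the median of the 6 was -0.069. There 1 of 6, MT-CYB, was called lower (log2 fold change -0.14, adjusted p = 1.1e-04), where 12.1% of all genes were. That G245S count rose to 2 without WT dish 1. The MT-ND share of all counts assigned to the 13 genes was used to compare both sets within the mitochondrial counts. It was 40.9%, 40.8% and 40.3% in WT, 40.4%, 40.5% and 40.6% in G245S and 41.8% in each R273H dish. R273H was above every WT and every G245S dish, with mean differences of 1.11 percentage points for R273H minus WT and -1.31 for G245S minus R273H (exact permutation p = 0.1 each, the smallest possible), while G245S overlapped with WT (difference -0.20, exact permutation p = 0.4). The G245S difference was -0.079 without WT dish 1, -0.37 without WT dish 3 and -0.11 with pseudogene counts added. Of the mitochondrial rRNA rows, which the authors' filter on rRNA reads may have thinned, MT-RNR2 fell by 11.4% in R273H (adjusted p = 0.00236), and its log2 fold change in G245S was -0.089 (adjusted p = 0.0943). MT-RNR1 was not called in R273H (0.027, adjusted p = 0.710) or in G245S (-0.035, adjusted p = 0.635). The ratio of summed MT-ND to summed mitochondrial rRNA counts averaged 114% ± 5.19 over the WT dishes (SD, n = 3), 113% ± 1.03 over the G245S dishes and 114% ± 4.90 over the R273H dishes, and all groups overlapped. The part of the rRNA rows in the result was not tested.

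**Figure D4:**
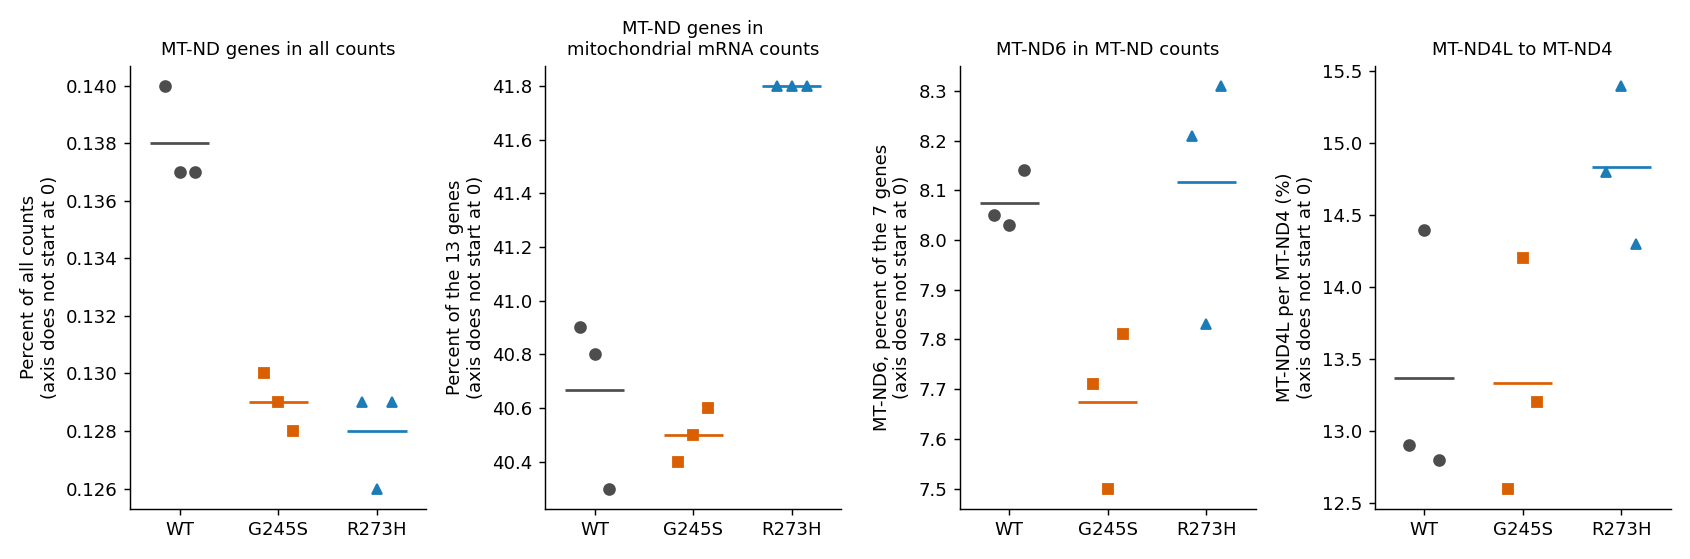
Quantities in every dish of WT, G245S and R273H, each as a percentage with the mean as a line and a vertical axis that does not start at 0: MT-ND counts in all counts, MT-ND counts in the counts of the 13 mitochondrial protein genes, MT-ND6 in MT-ND counts, and MT-ND4L counts per MT-ND4 count. MT-ND genes take less of the library in both mutants (0.126% to 0.130% against 0.137% to 0.140%) and more of the mitochondrial mRNA counts in R273H (41.8%).

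Within the MT-ND counts the make-up differed between groups. The MT-ND5 share (mean ± SD of 3 dishes) was 41.4% ± 0.128 in WT, 40.9% ± 0.264 in G245S and 39.9% ± 0.156 in R273H, and no dish of 1 group reached the range of another. MT-ND1 took 8.27% ± 0.235 in WT, 7.58% ± 0.112 in G245S and 8.24% ± 0.125 in R273H, so G245S alone stood below the others. MT-ND4 took 19.9% ± 0.308 in WT and more in every mutant dish, with 20.6% ± 0.233 in G245S and 20.8% ± 0.131 in R273H. MT-ND3 was above WT in every G245S dish (7.86% ± 0.288 against 7.30% ± 0.176) and MT-ND4L in every R273H dish (3.09% ± 0.0932 against 2.65% ± 0.185), whereas MT-ND2 shares overlapped throughout. Shares of 1 total depend on each other, and these were given no test.

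MT-ND6 was compared as the 1 minus-strand gene against the sum of all 7. Since the use of strand in counting is not stated, its counts may include antisense reads. Its share of MT-ND counts was 8.05%, 8.03% and 8.14% in WT, 7.71%, 7.50% and 7.81% in G245S and 8.21%, 7.83% and 8.31% in R273H. All G245S dishes lay below all WT and R273H dishes, and R273H spanned the WT range. The mean difference was -0.40 percentage points for G245S against WT and -0.44 for G245S against R273H (exact permutation p = 0.1 each). For R273H against WT it was 0.041 (exact permutation p = 0.9). With pseudogene counts added, G245S differed by -0.31 from WT (exact permutation p = 0.1) and by -0.45 from R273H (exact permutation p = 0.2).

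The ratio of MT-ND4L to MT-ND4, which share an mRNA, was added after the values were seen. It was 12.9%, 14.4% and 12.8% in WT, 12.6%, 14.2% and 13.2% in G245S and 14.8%, 15.4% and 14.3% in R273H. R273H exceeded every G245S dish (exact permutation p = 0.1) and overlapped with WT at WT dish 2 (mean difference 1.51 percentage points, exact permutation p = 0.2). G245S and WT overlapped (exact permutation p = 1.0). With pseudogene counts added, the difference of R273H from WT was 0.73 percentage points (exact permutation p = 0.3). That of G245S from R273H was then -1.36 (exact permutation p = 0.2).

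**Figure D5:**
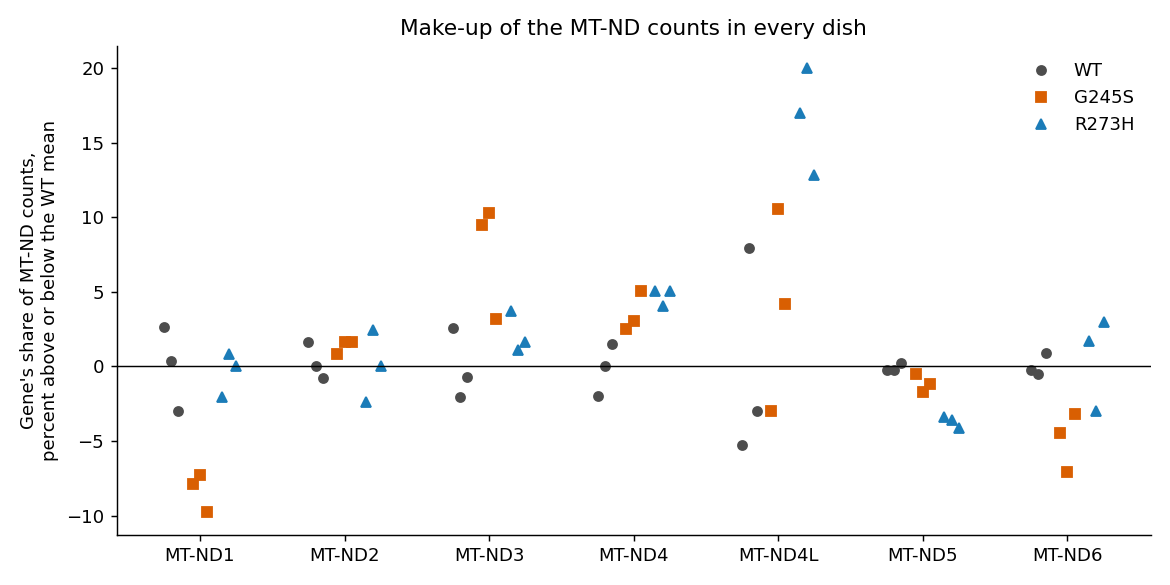
Share of each MT-ND gene in the summed MT-ND counts of a dish, as percent above or below the WT mean of that share (vertical axis), for every dish of WT, G245S and R273H. MT-ND1 and MT-ND6 shares are low in G245S, MT-ND5 shares are low in R273H, and MT-ND4L shares are high in R273H (3.09% of MT-ND counts against 2.65% in WT).

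In the direct comparison of G245S with R273H by the edgeR quasi-likelihood test, 0 of 7 members were called, against 2.59% of all genes. Of the 7, 4 had an unadjusted p under 0.05. DESeq2 also called 0, with MT-ND5 at an adjusted p of 0.0509 and no adjusted p for MT-ND4L. With the dish number added to the edgeR fit as a replicate block, MT-ND3 (adjusted p = 0.0331) and MT-ND5 (adjusted p = 0.0154) were called. MT-ND1 (log2 fold change of G245S over R273H -0.090, 95% confidence interval -0.16 to -0.021, adjusted p = 0.167) and MT-ND4L (-0.14, -0.24 to -0.031, adjusted p = 0.168) were lower in every G245S dish than in every R273H dish. MT-ND5 (0.067, 0.019 to 0.11, adjusted p = 0.133), MT-ND3 (0.10, 0.028 to 0.18, adjusted p = 0.144) and MT-ND2 (0.050, -0.0076 to 0.11, adjusted p = 0.403) were higher in every G245S dish. These are 2 members separated below and 3 above, where 9.77% of all genes were separated below and 11.6% above. Without G245S dish 3, MT-ND3 was called (log2 fold change 0.14, adjusted p = 0.0341). With the length and GC trend removed, MT-ND5 was called (0.097, adjusted p = 0.00530). Of the other 6 mitochondrial protein genes, 4 were called higher in G245S than in R273H, with a median of 0.11, beside 0.015 over the MT-ND genes. The number of these 4 calls ranged from 0, without G245S dish 1, to 5 as single dishes were left out.

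Nuclear copies of mitochondrial DNA can share reads with the MT-ND genes, and how reads that map to several places were counted is not stated. The table listed 217 pseudogenes named for MT-ND genes, from 23 for MT-ND3 to 38 for MT-ND5. Of all 30-base windows of a member, the share found exactly in the nuclear genome was 4.73% for MT-ND3, 17.2% for MT-ND5, 17.9% for MT-ND4L, 23.0% for MT-ND4, 34.3% for MT-ND1 and for MT-ND6, and 58.0% for MT-ND2. Summed pseudogene counts came to 20.1% to 24.7% of the count of MT-ND1 itself, nearly all on MTND1P23 on chromosome 1 (99.5%), and to 15.7% to 22.0% of that of MT-ND2, mostly on MTND2P28 on the same chromosome. They came to 3.13% to 3.69% for MT-ND5, the member with the least. For MT-ND4L they moved with the groups, at 23.5% of its count in WT, 19.4% in G245S and 16.4% in R273H, mostly on MTND4LP1 on chromosome X. With pseudogene counts added to their parent gene, the R273H log2 fold change of MT-ND4L was 0.033 in place of 0.12, and 3 members were called in each mutant, since MT-ND6 was not called in R273H (adjusted p = 0.108). The pseudogene share of MT-ND2 also moved with the groups, at 17.3% in WT, 19.1% in G245S and 20.6% in R273H, and its R273H log2 fold change became -0.071 (adjusted p = 0.0475) in place of -0.11. For MT-ND6 the pseudogene share was 6.98% in WT, 8.5% in G245S and 8.72% in R273H. The calls of MT-ND5 and MT-ND1 were kept.

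The nuclear partners of the MT-ND subunits were described from lists by role. Of 37 nuclear complex I subunits, all tested, G245S showed 16 called lower beside 3 higher, where 12.1% of all genes were called lower and 12.6% higher. R273H showed 21 lower beside 5 higher, where the shares of all genes were 14.6% and 14.2%. The list had medians of -0.062 and -0.12 on the log2 scale, close to the MT-ND medians. NDUFA13, an accessory subunit also known as GRIM19, stood at 200 ± 6.61 CPM in WT (SD, n = 3 dishes) and fell in G245S to 164 ± 7.34 (log2 fold change -0.29, adjusted p = 3.3e-07), and in R273H to 158 ± 5.58 (-0.34, adjusted p = 1.1e-08). NDUFB10 rose in G245S (0.17, adjusted p = 5.9e-05) and NDUFA10 in R273H (0.17, adjusted p = 1.9e-04). Of 19 assembly factors, which build the complex without remaining in it, calls in G245S were 3 higher and 3 lower, and in R273H 4 higher and 5 lower, with medians of 0.0019 and 0.011, and 24.7% and 28.8% of all genes were called in the same comparisons. NDUFAF6, an assembly factor linked to ND1, stood at 17.3 ± 1.35 CPM in WT and fell in G245S to 12.0 ± 0.583 (-0.53, adjusted p = 2.3e-05). In R273H it fell to 11.3 ± 0.765 (-0.61, adjusted p = 1.5e-06). TMEM126B, a factor of the membrane arm intermediate, rose in G245S (0.19, adjusted p = 0.00350), and TMEM70 rose in R273H (0.28, adjusted p = 1.0e-06).

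Of 21 factors of mitochondrial transcription and mRNA handling, 15 were called higher in each mutant, with 1 lower in G245S and 0 lower in R273H, and medians of 0.18 and 0.22, where 12.6% and 14.2% of all genes were called higher. LRPPRC, which stabilizes the mitochondrial mRNAs of the heavy strand, stood at 443 ± 19.7 CPM in WT (SD, n = 3 dishes) and rose in G245S to 555 ± 21.3 (0.33, adjusted p = 1.0e-08), and in R273H to 576 ± 9.29 (0.38, adjusted p = 6.0e-10). FASTK, whose mitochondrial form is required for MT-ND6 mRNA, fell in G245S from 23.3 ± 1.18 to 20.5 ± 0.545 CPM (-0.18, adjusted p = 0.0327). Of 14 mitochondrial translation factors, 5 were called in G245S (4 rising and 1 falling), where 24.7% of all genes were called. In R273H, 9 were called (7 rising and 2 falling), where 28.8% of all genes were called. DESeq2 called 5 of the 14 in R273H. The release factor MTRF1L rose in both mutants (0.32 and 0.37, adjusted p = 0.00320 and 4.7e-04), the initiation factor MTIF3 fell in G245S (-0.21, adjusted p = 0.0346), and MTFMT, which formylates the initiator methionine, fell in R273H (-0.27, adjusted p = 0.0116).

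The nuclear genes whose level over the 9 libraries was most like that of the summed MT-ND counts were found among 12656 genes that averaged 100 counts or more. By Pearson's r of log2 CPM they were NDUFB8 (0.992), a nuclear subunit of the complex I membrane arm, SRI (0.982), TLN1 (0.980), REX1BD (0.979) and BEX3 (0.979). Each was called lower in both mutants, as in NDUFB8 with log2 fold changes of -0.09 and -0.14. These genes were chosen for likeness to a sum that was lower in the mutants, so their direction follows from that choice. The libraries share their groups and pools, so these values describe a common difference between groups. Of the members, MT-ND5 was most like the sum it contributes most to (0.982), and MT-ND4L was the 1 member with a negative value (-0.586).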

How the data were processed

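Ribo-seq was performed in HEK293T cells of 3 groups, with 3 dishes (10 cm) each. The labels give 1 sample per group, and its 3 columns were taken as dishes. That dishes are replicates rests on the study's methods, and p-values measure only the spread between these dishes. Per the labels and the submitters' processing notes, the authors trimmed reads (Trim Galore, cutadapt), removed rRNA reads, aligned to GRCh38 with STAR and used UMI-tools where applicable. The deposited table holds expected counts, estimated per gene and not scaled. The counter, annotation release, strand and multi-mapping rules are not given in the sources used here. Between 61.5% and 63.7% of nonzero values per library were not whole.

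The test used rounded expected counts in edgeR 4.0.16 (R 4.3.3; TMM, filterByExpr, robust glmQLFit, glmQLFTest, two-sided, group as the only term, 6 residual degrees of freedom). Depth was 18.8 to 20.0 M counts per library in WT, 18.7 to 21.6 M in G245S and 23.3 to 24.6 M in R273H. Every R273H library was thus deeper than every other library. TMM factors were 0.987 to 1.01. The fit was tested on simulated data. Shares were compared by exact two-sided permutation tests of dishes (scipy 1.17.1). Alternatives were other scaling factors, DESeq2 1.42.0, no filter, the 6 libraries compared, a replicate block, removal of a length and GC trend, pseudogene counts added, nuclear library sizes and leaving out each dish. Coordinates, coding lengths and sequences came from GENCODE 44 and the GRCh38 genome. Of 63241 genes, 62666 matched by identifier.

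Members and gene lists (other mitochondrial proteins, nuclear complex I subunits, assembly factors, mitochondrial transcription and mRNA handling, translation factors) were chosen with earlier results of these data known. Besides the members and the other 6 mitochondrial protein genes, the text names, in each nuclear list and mutant, the called gene with the largest change in each direction (mean count at least 100) and the 5 genes most like the MT-ND sum. No spike-in or matched RNA-seq was used here, so a shift shared by the whole library escapes these comparisons and mRNA abundance is not separated from translation. Protein sequences were not used here.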

Additional observations from a re-analysis of the deposited data

How the results depend on the processing

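In G245S against WT, 3 members were called in all but 2 of the 19 alternatives. There were 4 calls with the length and GC trend removed, with or without the replicate block. The added call was MT-ND3, called higher (log2 fold change 0.12 with the trend removed). In R273H against WT the 4 calls became 2 with DESeq2. They ranged from 2 (without WT dish 1) to 5 (without WT dish 2) as single dishes were left out. With the trend removed there were 5 calls, and 6 when the block was added to that. In each setting with 5 or 6 calls, MT-ND4L was called higher and the other calls were lower. Between the mutants, the 0 calls became 2 with the replicate block (MT-ND3, adjusted p = 0.0331, and MT-ND5, adjusted p = 0.0154), 1 with the trend removed (MT-ND5), 3 with both (MT-ND2, MT-ND3 and MT-ND5), and ranged from 0 to 1 over left-out dishes. The cause of these changes was not tested, and with fewer dishes fewer degrees of freedom remain.

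The G245S log2 fold change of MT-ND4L turned positive with the trend removed (0.076), also with the block (0.077), and ranged from -0.060 to 0.027 over left-out dishes. That of MT-ND4 between the mutants ranged from -0.00086 to 0.027. The R273H difference in MT-ND6 share ranged from -0.056 to 0.18 percentage points, and the G245S difference in the MT-ND4L to MT-ND4 ratio from -0.43 to 0.54, or -0.63 with pseudogene counts added. None of these passed a test. The other share differences kept their direction.

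The dish numbers were not taken to pair the dishes. Deviations of same-numbered dishes correlated at 0.0421 to 0.229, and those of differently numbered dishes at -0.184 to 0.0583. The highest correlation of each dish was with a dish of its own number. The replicate block raised the R273H count to 5, with MT-ND4L called higher (adjusted p = 0.0474). It raised the G245S count of the other 6 mitochondrial protein genes to 3.

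Over all genes, the 4900 calls in G245S and 5707 in R273H were 3049 and 3571 by DESeq2. The 513 calls between the mutants became 1262 with the block and ranged down to 162 without G245S dish 1. Their split of 368 higher and 145 lower was 411 and 293 with no filter and 301 and 57 by DESeq2. Counting error was up to 3.99% for a member, so depth limits MT-ND4L most.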

Other observations

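Mitochondrial tRNA genes lie between the MT-ND genes and were examined after the values were seen. Of 22 tRNA genes, G245S had 5 called lower with 0 called higher, and R273H had 6 called lower with 3 called higher, by edgeR's quasi-likelihood test with Benjamini-Hochberg adjustment, where 24.7% and 28.8% of all genes were called. MT-TW, which directly follows MT-ND2, was counted 74, 79 and 74 times in the WT dishes, 75, 64 and 84 times in G245S and 146, 144 and 154 times in R273H. It rose in R273H (log2 fold change 0.65, SE 0.131, adjusted p = 4.0e-04), with every R273H dish above every other dish. In G245S its log2 fold change was -0.063 (adjusted p = 0.805), and the mutants differed (-0.71 for G245S over R273H, adjusted p = 0.00243). MT-TL1, which directly precedes MT-ND1, also rose in R273H (0.35, adjusted p = 0.0328), as did MT-TF (0.32, adjusted p = 0.0117).

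MT-TQ, at 38.4, 38.9 and 43.6 CPM in WT, 30.8, 32.4 and 34.3 in G245S and 26.0, 25.4 and 30.1 in R273H, fell in both mutants (log2 fold change -0.31, adjusted p = 8.0e-04, and -0.57, adjusted p = 1.8e-07). A tRNA is not translated, and what these reads are was not tested.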
